A study of Bos taurus with 8 samples.

Results

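Cathepsins are proteases that work mainly inside lysosomes, and 8 of them (CTSB, CTSC, CTSD, CTSH, CTSK, CTSS, CTSZ and CTSA) are described here in bovine blastocysts that were cultured with or without a radical generator. The genes were taken by symbol from the array's annotation, with case ignored, which gave 9 probes of the 43794 on the array and 8 of its 15227 annotated genes. CTSS had 2 probes and each other gene had 1. Blastocysts were produced in vitro from slaughterhouse ovaries and collected 196 hours after fertilization, in pools of 10 embryos. The AAPH group was cultured in synthetic oviductal fluid with 0.01 mM AAPH, a water-soluble compound that decomposes to peroxyl radicals, from day 3 to day 5 and again from day 5 to day 7. The control group ("Control-Oxid") went through the same steps without it. Each treatment had 4 pools, and 8 arrays set AAPH RNA against control RNA, with AAPH in the red dye Cy5 on 4 arrays and in the green dye Cy3 on 4.

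Most cathepsins are made as inactive precursors, carried to the lysosome by mannose 6-phosphate receptors or sortilin, and activated there by acid and by other proteases. Cystatins hold back the cysteine cathepsins that escape into the cytosol or out of the cell. In cattle, cathepsin transcripts in cumulus cells and cathepsin B activity in oocytes and embryos have been studied as markers of developmental competence. The roles given below for single proteases are those known from the human and mouse proteins.

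Arrays of opposite dye orientation were averaged as 4 swap pairs, so n = 4 throughout, and every ratio is AAPH over control on the log2 scale, where 1 unit is a doubling. No label gives the pairing, which came from the correlation between arrays. It joined arrays whose ratios deviated alike, so closeness within a pair and spread between pairs are favoured by that choice. Swap pairs 1 and 2 lay on slide 26, and pairs 3 and 4 on slides 78 and 79. Per array, 17297 to 34802 probes stood above background in AAPH RNA, and the range for control RNA was 15957 to 36066. These numbers differed by slide and dye. On slide 26 they were 30967 to 36066 over both dyes. On slides 78 and 79 they were 15957 to 22399 in Cy5 and 28364 to 30521 in Cy3. Some markers of the labelled stage were above background on all 8 arrays in both treatments. Among them were KRT8, TFAP2C and IFNT of the trophectoderm, and POU5F1 and NANOG of the inner cell mass. This held for 8 of 12 trophectoderm genes and 5 of 9 inner cell mass genes kept for testing. It did not hold for CDX2 (4 arrays for AAPH, 5 for control RNA) or SOX2 (7 and 6). Of all 43794 probes, 16520 were above background on all 8 arrays in AAPH or in control RNA. The labels do not say whether the pools stem from separate fertilization runs, and p-values here weigh only the variation among these pools, which may be technical. No probe of any gene passed at an adjusted p under 0.05 (limma with Benjamini-Hochberg adjustment over 32931 probes above background), while 4423 had an unadjusted p under 0.05.

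All 8 cathepsins were measurable in blastocysts of both treatments, and none passed the test for a difference. Every array read CTSB, CTSC, CTSD, CTSH and CTSZ above background in both treatments. For CTSK and the brighter CTSS probe this held on 8 arrays for AAPH and 7 for control RNA, for CTSA on 7 and 8, and for the dimmer CTSS probe on 6 and 6. The highest mean ratios were those of CTSZ, 0.40 ± 0.48 (SD, n = 4), and CTSK, 0.37 ± 0.36, and the lowest were those of CTSB, -0.22 ± 0.32, and CTSD, -0.15 ± 0.49. With the brightest probe of each gene, 5 cathepsins had a mean ratio above 0 and 3 below, with a median of 0.039, beside a median of 0.0062 over the 12606 genes measured. Because each sample was a pool of whole embryos, fewer cells of a type and less RNA per cell cannot be told apart in any of these ratios.

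Of the 9 cathepsin probes 0 passed after adjustment, where 0% of all probes did. CTSK alone had an unadjusted p under 0.05, in the direction higher in AAPH, where 5.68% of all probes did, and no cathepsin was lower at that level, where 7.75% of all probes were. The dimmer CTSS probe was the single one of the 9 that was higher in AAPH in 4 of 4 swap pairs, a pattern held by 11.6% of all probes. No cathepsin probe was lower in 4 of 4 pairs, against 10.6% of all probes. For none of the 9 did the signal of the AAPH pools lie wholly above or below that of the control pools, which was so for 1.93% of all probes. A count of 0 or 1 among 9 probes is close to each of these background shares.

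**Figure D1:**
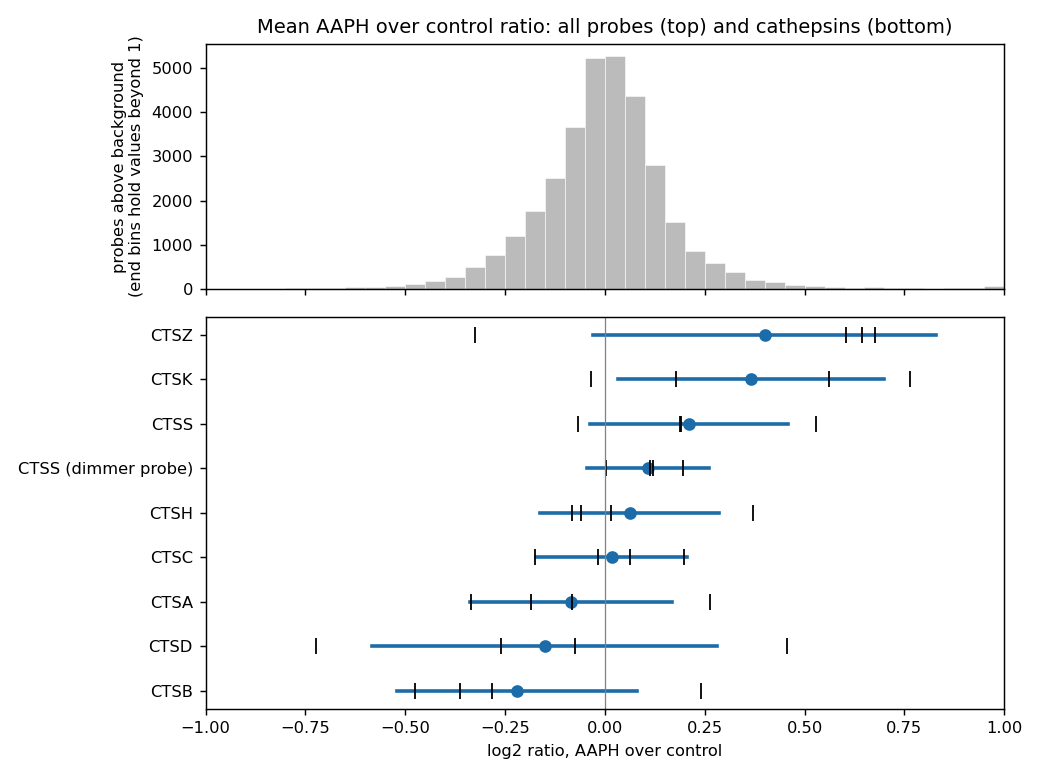
The upper panel counts all 32931 probes above background by mean log2 ratio of AAPH over control in steps of 0.05, and the lower panel gives the 9 cathepsin probes with the mean (point), its 95% interval (line) and the 4 swap pairs (ticks). The interval of CTSK alone stays above 0, from 0.034 to 0.70, before adjustment for multiple tests.

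CTSD, the main aspartic endopeptidase of the lysosome, had a log2 signal of 13.30, 12.48, 11.49 and 11.79 in the AAPH pools of swap pairs 1 to 4. In the control pools of the same pairs it had 12.84, 12.55, 11.75 and 12.51. The AAPH pool was the higher in pair 1 alone, the groups overlapped, and the highest and lowest of all 8 pools were both AAPH pools. Its ratio was 0.46, -0.07, -0.26 and -0.72 in the 4 pairs. The mean of -0.15 ± 0.49 had a 95% interval from -0.58 to 0.28, a fold between 0.668 and 1.22 (limma, unadjusted p = 0.43, adjusted p = 0.742). These data therefore left room for a difference of that size in either direction. Without swap pair 1 the mean was -0.35 and without swap pair 4 it was 0.041, and neither passed after adjustment. CTSD was also read differently in the 2 dyes: in 4 of 4 pairs the array with AAPH in Cy5 gave the lower ratio, by 0.58 on average, which cancels in the pair mean. With AAPH in Cy5 the ratios of pairs 1 to 4 were 0.22, -0.38, -0.50 and -1.10, and with AAPH in Cy3 they were 0.70, 0.24, -0.019 and -0.35. The order of the pairs was thus the same in both orientations, which the choice of pairing favours.

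CTSB, a cysteine endopeptidase that can also trim dipeptides from the carboxyl end of proteins, stood at a log2 signal of 10.78, 10.47, 9.54 and 9.42 in AAPH pools 1 to 4. The control pools of these pairs stood at 10.54, 10.95, 9.82 and 9.78. AAPH was the higher in pair 1 and the lower in pairs 2, 3 and 4, and both treatments were brighter in the pools of slide 26 than in those of slides 78 and 79. The pair ratios were 0.24, -0.48, -0.28 and -0.36. Their mean of -0.22 ± 0.32 had an interval from -0.52 to 0.079 and an adjusted p of 0.489 (limma, unadjusted p = 0.123). Without swap pair 1 the mean was -0.37 and the unadjusted p was 0.00455, with an adjusted p of 0.159, and without swap pair 2 the mean was -0.14. CTSB too had its lower ratio with AAPH in Cy5 in 4 of 4 pairs, by 0.16 on average.

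CTSK, the collagen-degrading cysteine protease of osteoclasts and fibroblasts, had a log2 signal of 8.35, 8.00, 8.13 and 7.30 in the AAPH pools of pairs 1 to 4. The control pools had 7.79, 7.24, 8.17 and 7.12. AAPH was higher in pairs 1, 2 and 4 and level with control in pair 3, where the control pool was among the brightest of the 8. The ratios of 0.56, 0.76, -0.03 and 0.18 gave a mean of 0.37 ± 0.36, a fold of 1.29 with an interval of 1.02 to 1.62. The unadjusted p was 0.0356 and the adjusted p 0.346 (limma). The mean on slide 26 was 0.66 and that on slides 78 and 79 was 0.071, and without swap pair 2 the ratio was 0.23. The unadjusted p was 0.114 without pair 1, 0.127 without pair 2 and 0.0568 with the authors' deposited ratios. Arrays of a pair lay close together for CTSK, with an SD of 0.070 about the pair mean against 0.36 between pairs. The choice of pairing favours such closeness.

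CTSS, a cysteine protease of antigen-presenting cells that cuts the invariant chain and stays active at neutral pH, was read by 2 probes. The brighter gave a log2 signal of 7.35, 7.64, 7.98 and 8.35 in AAPH pools 1 to 4. Control pools gave 7.16, 7.70, 7.79 and 7.82. The AAPH pool of pair 4 was the brightest of the 8, the control pool of pair 1 was the dimmest, and the rest overlapped. Its pair ratios were 0.19, -0.067, 0.19 and 0.53. The mean ratio was 0.21 ± 0.24 with an interval from -0.037 to 0.46 (limma, unadjusted p = 0.083, adjusted p = 0.431). Without swap pair 2 the mean was 0.30, with an unadjusted p of 0.0279 and an adjusted p of 0.469, and without swap pair 4 it was 0.10. Its arrays differed within pair 3, where AAPH in Cy3 gave 0.64 and AAPH in Cy5 gave -0.26, and in that pair the control RNA was above background on 1 of 2 arrays. The dimmer probe stayed between 6.92 and 7.20 in AAPH pools and between 6.92 and 7.09 in control pools, with pair ratios of 0.0031, 0.12, 0.11 and 0.19. Its mean of 0.11 ± 0.079 had an adjusted p of 0.504 (limma, unadjusted p = 0.135). Both probes thus had a mean above 0, and the brighter was below 0 in pair 2. The CTSK and CTSS genes are close neighbours on a bovine chromosome in RefSeq's ARS-UCD2.0 annotation, with 1 gene between them, LOC112445950.

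**Figure D2:**
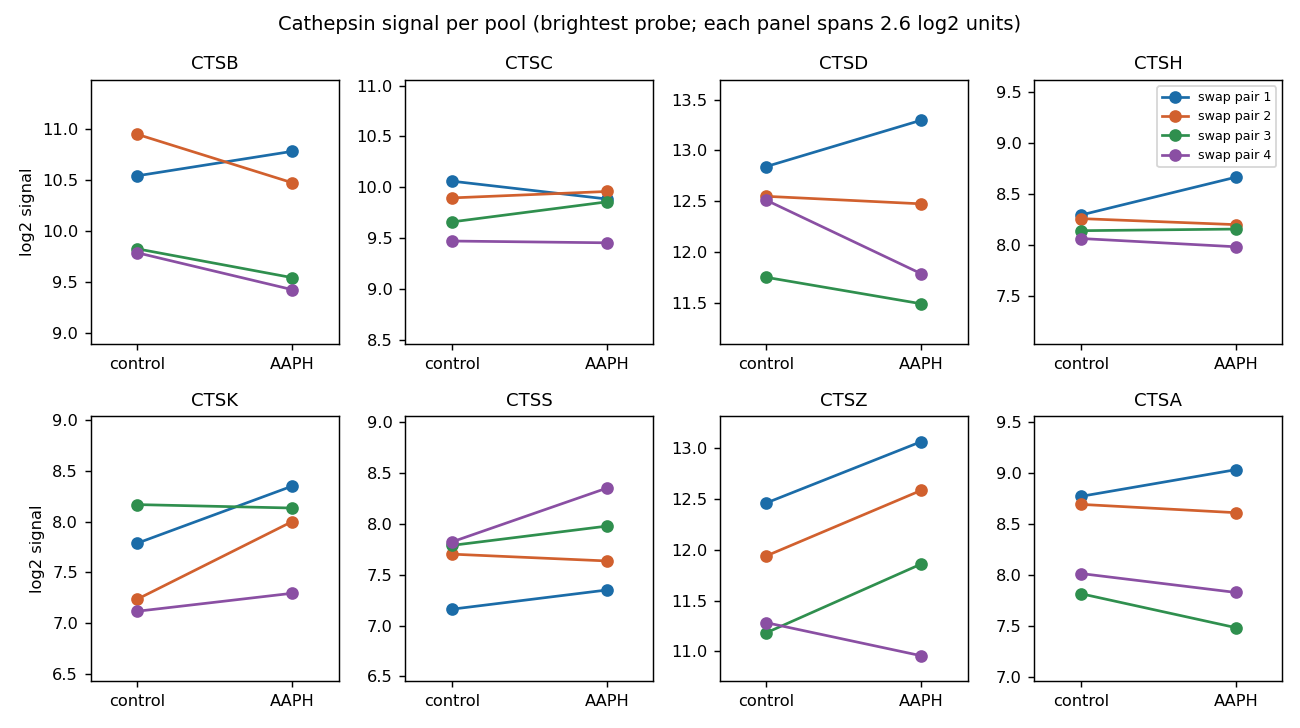
Each panel gives the log2 signal of the brightest probe of 1 cathepsin in the control and AAPH pools, with a line joining the pools of each swap pair. All panels span the same number of log2 units and are not comparable in height, since probes bind differently. The lines of CTSZ climb in swap pairs 1 to 3 and drop in pair 4, and those of CTSD and CTSB climb in pair 1 alone.

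CTSZ, a carboxypeptidase that removes single residues from the end of proteins and is also called cathepsin X, had a log2 signal of 13.06, 12.58, 11.86 and 10.96 in AAPH pools 1 to 4. Control pools were at 12.46, 11.94, 11.18 and 11.28. AAPH was higher in pairs 1, 2 and 3 by similar amounts and lower in pair 4, and the dimmest of the 8 pools was the AAPH pool of pair 4. The ratios were 0.60, 0.64, 0.68 and -0.33, and the 2 arrays of each pair differed by at most 0.11. Their mean of 0.40 ± 0.48 was a fold of 1.32 with an interval of 0.98 to 1.78 (limma, unadjusted p = 0.063, adjusted p = 0.396). Without swap pair 4 the mean was 0.64, with an unadjusted p of 0.000225 and an adjusted p of 0.261. One pair thus decided the width of this interval, and the gene did not pass with or without it.

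CTSC, the dipeptidyl peptidase that activates granule serine proteases, had a log2 signal of 9.88, 9.96, 9.86 and 9.45 in AAPH pools 1 to 4. In control pools it had 10.06, 9.89, 9.66 and 9.47. The pools of the treatments interleaved, and the pair ratios of -0.18, 0.063, 0.20 and -0.018 had no common sign. The mean ratio was 0.017 ± 0.16, with the narrowest interval among the brightest probes of the 8 genes, from -0.17 to 0.21, a fold of 0.887 to 1.15 (limma, unadjusted p = 0.836, adjusted p = 0.947). CTSH, the main lysosomal aminopeptidase among the cathepsins, had a log2 signal of 8.67, 8.20, 8.16 and 7.98 in AAPH pools and 8.29, 8.26, 8.14 and 8.06 in control pools. The AAPH pool of pair 1 stood above the other 7, which lay close together. Its pair ratios were 0.37, -0.059, 0.016 and -0.081, so that pair 1 stood apart from 3 pairs near 0. The CTSH ratio was 0.062 ± 0.21, with an interval from -0.16 to 0.29 (limma, adjusted p = 0.802).

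CTSA is a serine carboxypeptidase that also shields beta-galactosidase and neuraminidase from breakdown in a shared complex. Its log2 signal was 9.03, 8.61, 7.48 and 7.83 in AAPH pools 1 to 4. The control pools gave 8.77, 8.69, 7.81 and 8.01. Pools of slide 26 were brighter than those of slides 78 and 79 in both treatments, and AAPH was the higher in pair 1 alone. Its pair ratios were 0.26, -0.082, -0.33 and -0.19. The mean ratio was -0.085 ± 0.25, with an interval from -0.34 to 0.17 (limma, unadjusted p = 0.447, adjusted p = 0.751). It was -0.20 without swap pair 1, -0.051 without pair 4 and -0.0018 without pair 3, and none of these passed after adjustment. Its partners GLB1 and NEU1 were counted with the sorting genes described below.

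Most cathepsin probes varied more between swap pairs than between the arrays of a pair. The pairing was chosen for arrays that deviated alike, which favours this result. The SD over pairs exceeded the SD of an array about its pair mean for 7 of the 9 probes; the exceptions were both CTSS probes. CTSD and CTSZ had an SD over pairs of 0.49 and 0.48, larger than in 97.1% and 97.0% of all probes above background. Among probes of similar brightness these shares were 93.1% and 92.9%, and those of CTSK and CTSB were 87.5% and 68.6%. CTSC was steadier than most, with a larger SD than 18.9% of probes of similar brightness. The median SD over pairs was 0.16 over all probes above background and 0.25 in the brightest band, which held CTSD, CTSZ, CTSB and CTSC. The median SD of an array about its pair mean was 0.23 over all these probes. Control pools alone spanned from 0.18 log2 units for the dimmer CTSS probe to 1.28 for CTSZ, and for every cathepsin probe that span was wider than the mean difference between treatments.

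**Figure D3:**
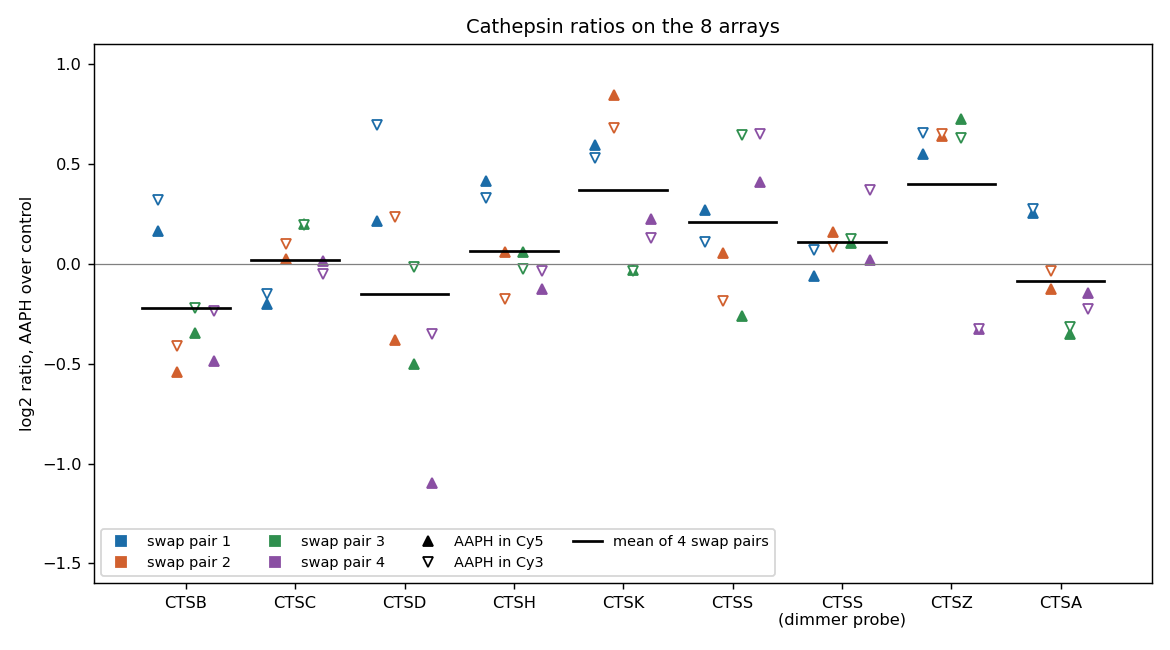
Points are the log2 ratios of AAPH over control on the 8 arrays for the 9 cathepsin probes, with a colour for each swap pair, filled triangles for AAPH in Cy5, open ones for AAPH in Cy3, and a bar at the mean of the 4 pairs. The triangles of a pair nearly coincide for CTSZ, CTSK, CTSC and CTSA, and stand apart for CTSD in every pair and for CTSS in pair 3. Pairs were chosen for arrays that deviated alike.

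The direction of the group differed from pair to pair. In swap pair 1, 7 of the 8 cathepsins were higher in AAPH, with a median of 0.32, and CTSC was the exception. In pair 2 it was 3 of 8 (CTSK, CTSZ and CTSC) with a median of -0.063, in pair 3 it was 4 of 8 with -0.0089, and in pair 4 it was 2 of 8 (CTSS and CTSK) with -0.13. Over all probes above background the median of each pair lay between -0.014 and 0.0088. The normalization of each array sets that median near 0, so it does not gauge how unusual a median of 8 genes is. CTSB, CTSD and CTSA shared the pattern of a ratio above 0 in pair 1 and below 0 in the other 3.

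The ratios of 2 cathepsins differed between slide sets before adjustment. CTSK was higher on slide 26 than on slides 78 and 79 by 0.59 (limma contrast, unadjusted p = 0.00882, adjusted p = 0.42). CTSD was at 0.19 on slide 26 and at -0.49 on the other slides, a difference of 0.68 (unadjusted p = 0.0386, adjusted p = 0.485). At this unadjusted level 9.95% of all probes differed between slide sets, and after adjustment 0% did. CTSZ had means of 0.62 and 0.18 in the 2 sets (unadjusted p = 0.235, adjusted p = 0.686), and CTSA had 0.090 and -0.26 (unadjusted p = 0.0809, adjusted p = 0.547). Each slide set held 2 swap pairs, so slide and pool cannot be told apart. With the slide set as a block the mean ratios were the same, and CTSK had an unadjusted p of 0.00352 and an adjusted p of 0.156.

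CTSK, the cathepsin of smallest p, was compared with 10144 other genes for likeness over the 8 arrays. ZNF462, RSF1, SEL1L3 and ZRANB1 had the highest Pearson correlations with it, 0.984, 0.983, 0.982 and 0.970. These 8 arrays share 4 pools of each treatment and 4 slide positions, so the values are a description. The mean ratio of these genes was 0.21, 0.12, 0.27 and 0.017. Each had its highest value in pair 2 and its lowest in pair 3, as CTSK did, which their choice by correlation favours.

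None of the other cathepsins on the array passed after adjustment. Of 5 with a probe above background 4 had a ratio above 0 and 1 below, with a median of 0.027 and 0 at an unadjusted p under 0.05. CTSL1, an older symbol that RefSeq lists under both CTSL and CTSV, which are broad endopeptidases, was at 0.23 ± 0.39 with -0.014, -0.14, 0.38 and 0.71 in the 4 pairs (limma, adjusted p = 0.528). It was thus below 0 in both pairs of slide 26 and above 0 in both pairs of the other slides. CTSF was at 0.087 ± 0.21 and CTSW, a protease of cytotoxic lymphocytes, at -0.11 ± 0.16. Of 7 inhibitors above background, of 10 on the array, 2 had a ratio above 0 and 5 below, with a median of -0.041 and 0 at an unadjusted p under 0.05. CSTB, the cytosolic inhibitor cystatin B, had 0.30, -0.12, -0.49 and -0.39 in the 4 pairs with its brightest probe, and its other probe was at -0.088. The signs of the brightest probe were those of CTSB, which had 0.24, -0.48, -0.28 and -0.36, and also those of CTSD and CTSA. A link between these genes was not tested. CST6, a secreted cystatin, was at -0.098 ± 0.11, and SERPINB4, a serpin that can inhibit some cathepsins, was at -0.30 ± 0.67.

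Of the related lists the genes that process and sort cathepsins held the smallest p, that of SORT1, which did not pass after adjustment. Of 17 such genes 10 had a ratio above 0 and 7 below, with a median of 0.0046 and with 2 in each direction at an unadjusted p under 0.05. SORT1, the sorting receptor sortilin, was at 0.48, 0.39, 0.61 and 0.48 in the 4 pairs, a mean of 0.49 ± 0.088 (limma, unadjusted p = 0.000223, adjusted p = 0.146). SCARB2, the receptor that carries glucocerebrosidase to the lysosome, was at 0.64 ± 0.24 with its brightest probe (adjusted p = 0.153), while its other probes had a median of 0.0097. NAGPA, the enzyme that uncovers the mannose 6-phosphate tag, was at -0.40 ± 0.30 with its brightest probe and at 0.11 with the other. The probes of SCARB2 and NAGPA thus disagreed, and SORT1 had 1 probe.

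No other lysosomal gene passed after adjustment. Of 25 hydrolases and their helpers 14 were above 0 and 11 below, with a median of 0.050, and 3 higher and 1 lower had an unadjusted p under 0.05. MANBA, the lysosomal beta-mannosidase, was at 0.33 ± 0.11, LIPA, the acid lipase, at 0.43 ± 0.27, and HEXA, a beta-hexosaminidase subunit, at -0.25 ± 0.054 (limma, adjusted p = 0.183, 0.236 and 0.222). Of 18 membrane proteins 12 were above 0 and 6 below, with a median of 0.078, and 4 higher and 1 lower had an unadjusted p under 0.05. NPC1, the lysosomal cholesterol exporter, was at -0.32 ± 0.049, CD63 at 0.38 ± 0.23, with 0.025 for its other probe, and LAMP2 at 0.26 ± 0.21. Of 17 subunits and partners of the vacuolar proton pump, which acidifies the lysosome, 9 were above 0 and 8 below, with a median of 0.013; ATP6AP2 was at 0.37 ± 0.30, ATP6AP1 at 0.19 ± 0.12 and ATP6V1E1 at 0.18 ± 0.22. Of these 17, 2 had an unadjusted p under 0.05, both higher. Of 8 regulators of lysosome formation 5 were above 0, with RRAGD, a nutrient-sensing GTPase, at 0.25 ± 0.072, FLCN at 0.20 ± 0.29 and TFEB, the transcription factor for lysosomal genes, at -0.14 ± 0.17. RRAGD was the only regulator with an unadjusted p under 0.05, and the median of the 8 was 0.052. Of all 12606 genes 52.2% had a ratio above 0, and at an unadjusted p under 0.05 a share of 7.65% was higher and 7.34% lower.

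Of 14 matrix proteins that cathepsins can cut 7 were above 0 and 7 below, with a median of 0.037, and 3 higher and 1 lower had an unadjusted p under 0.05. COL3A1, a fibrillar collagen, was at 1.61 ± 0.76, COL1A1 at 0.31 ± 0.23 and HSPG2, the basement membrane proteoglycan perlecan, at -0.50 ± 0.29 (limma, adjusted p = 0.162, 0.291 and 0.215). All 8 arrays read COL3A1 above background for AAPH, and 5 did for control RNA. The 3 higher genes were COL1A1, COL1A2 and COL3A1, which are counted again among the fibroblast and connective tissue markers below.

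**Figure D4:**
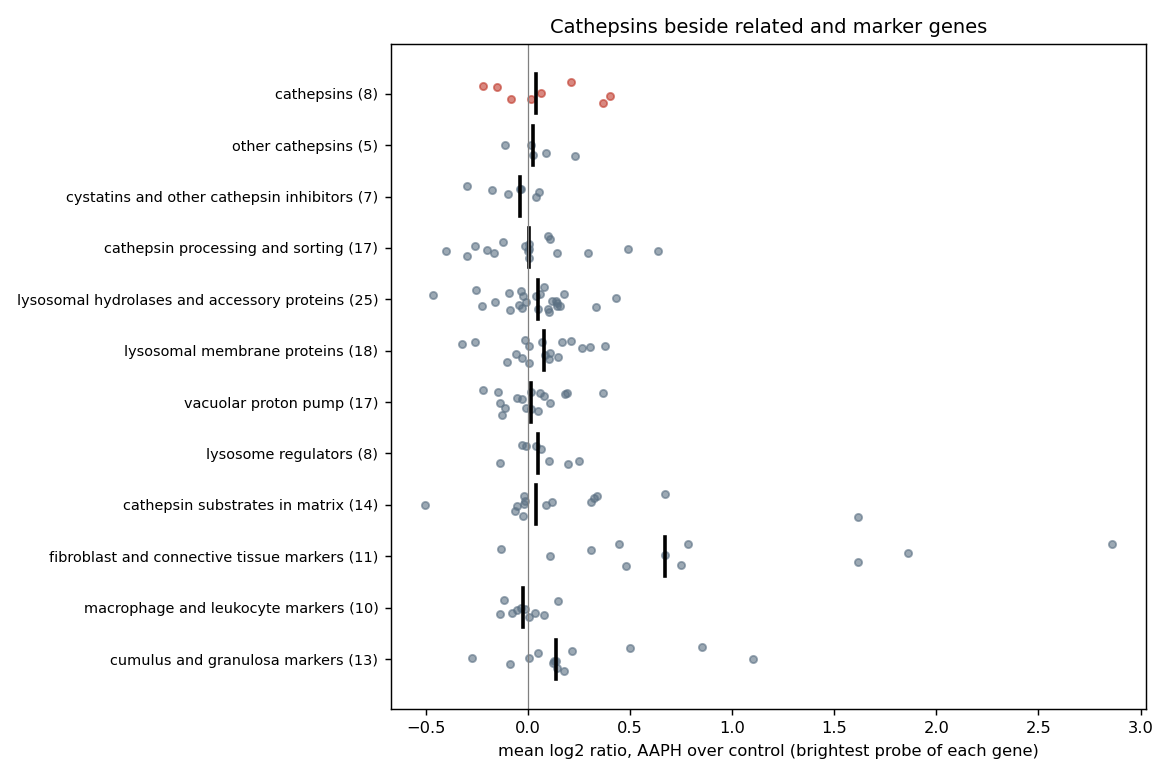
Each point is the mean log2 ratio of AAPH over control for the brightest probe of 1 gene, by gene list, with the number of genes in brackets and a bar at the list's median. The 8 cathepsins, in red, spread from -0.22 to 0.40 around a median of 0.039, while the fibroblast and connective tissue markers have a median of 0.67.

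Markers of other cell types were set beside the cathepsins, since fibroblasts express CTSK and macrophages express CTSS. Of 11 fibroblast and connective tissue markers above background, of 12 on the array, 10 had a ratio above 0 and 9 of them an unadjusted p under 0.05, and none passed after adjustment. The median of this list was 0.93, 0.95, 0.64 and 0.25 in pairs 1 to 4, and its summed log2 signal ran from 13.31 to 15.36 in AAPH pools and from 12.95 to 13.83 in control pools. VIM was at 1.86 ± 0.62 and PDGFRA at 0.45 ± 0.36, with 0.0066 for its other probes. COL1A2 had 1.46, 0.63, 0.98 and -0.38 in the 4 pairs, and like CTSZ it was above 0 in pairs 1 to 3 and below 0 in pair 4. DCN, THY1 and S100A4 were also below 0 in pair 4. VIM, LUM, PDGFRA, COL3A1, COL1A1, PDGFRB and POSTN were above 0 in that pair, unlike CTSZ. The part of such cells in the ratios of CTSK and CTSZ was not tested.

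Of 10 macrophage and leukocyte markers above background, of 14 on the array, 4 had a ratio above 0 and 6 below, with a median of -0.022 and 0 at an unadjusted p under 0.05. Their summed log2 signal was 10.47 to 10.60 in AAPH pools and 10.44 to 10.65 in control pools, and 1 of the 10 was above background on every array in both treatments. PTPRC was at -0.12 ± 0.16, CD68 at -0.012 ± 0.25 and AIF1 at -0.055 ± 0.27. The summed signals of the treatments overlapped, and the part of such cells in the ratio of CTSS was not tested. Of 13 cumulus and granulosa markers 11 had a ratio above 0, with a median of 0.14 and a summed log2 signal of 12.54 to 13.95 in AAPH pools and 12.42 to 13.81 in control pools; 3 higher and 1 lower had an unadjusted p under 0.05. The 3 higher ones were PTX3 at 1.104 ± 0.914, TNFAIP6 at 0.853 ± 0.951 and INHBA at 0.500 ± 0.469 (limma, adjusted p = 0.269, 0.359 and 0.313). The lower one was HSD3B1 at -0.28 ± 0.17 (adjusted p = 0.275). Of the other bright genes of this list, STAR was at 0.21 ± 0.63 and PTGS2 at 0.0059 ± 0.50. The lineages of the embryo itself had medians of -0.072 for 12 trophectoderm genes, -0.018 for 9 inner cell mass genes and -0.0004 for 10 hypoblast genes. Of the trophectoderm genes 2 were above 0 and 10 below, of the inner cell mass genes 4 and 5, and of the hypoblast genes 5 and 5. An unadjusted p under 0.05 was held by 1 lower trophectoderm gene, 1 lower inner cell mass gene, and 3 higher and 1 lower hypoblast genes. PDGFRA, counted among the fibroblast markers too, was 1 of these 3 higher hypoblast genes. The brightest genes of these lineages were KRT8 at -0.058 ± 0.12, TFAP2C at -0.029 ± 0.12 and IFNT at 0.052 ± 0.51 for trophectoderm. For the inner cell mass they were POU5F1 at -0.18 ± 0.28, NANOG at 0.20 ± 1.27 and DPPA3 at 0.18 ± 0.29. For hypoblast they were HNF4A at 0.12 ± 0.83, LAMA1 at -0.064 ± 0.30 and FN1 at -0.018 ± 0.19. The other probe of DPPA3 was at -0.079 and that of HNF4A at 0.034, and the other probes of TFAP2C had a median of -0.16.

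**Figure D5:**
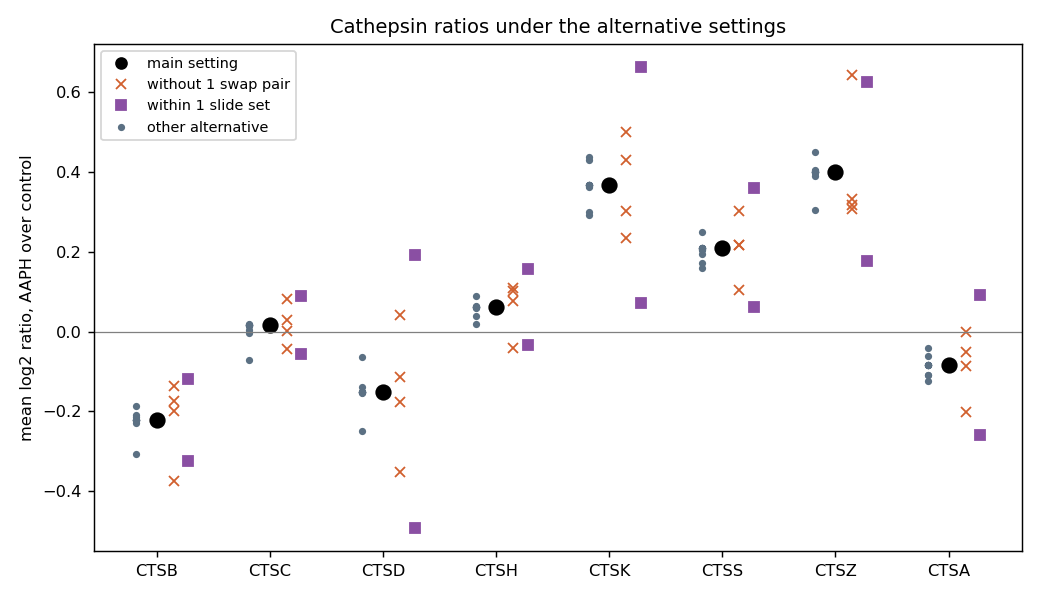
The mean log2 ratio of AAPH over control of each cathepsin (brightest probe) is shown in the main setting, without each swap pair in turn, within each slide set, and under the other alternatives. CTSB stays below 0 and CTSK, CTSS and CTSZ stay above 0 in all of them, while CTSC, CTSD, CTSH and CTSA cross 0. Settings that change only the filter, the pairing or the variance cannot move a mean ratio.

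The signs of CTSB, CTSK, CTSS and CTSZ held under all 18 alternative settings, and 0 of the 9 probes passed after adjustment in any of them. Not all of these settings could turn a sign. The filters, the single arrays, the crossed pairing, the variance trend and the slide block leave the mean ratio of a probe as it was. Averaging the probes of a gene could alter CTSS alone. CTSK ranged from 0.071 to 0.66, CTSZ from 0.18 to 0.64, CTSS from 0.061 to 0.36 and CTSB from -0.37 to -0.12. With each array centred on its median in place of the loess fit, CTSB was at -0.31 and CTSC at -0.070. For the other 4 genes no direction is given here, since their sign changed with the setting.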

How the data were processed

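The authors deposited scanner files with linear foreground and background intensity per spot, per the file headers. In R 4.3.3 with limma 3.58.1, normexp (offset 50) was applied to mean foreground and median background, and each array was normalized with loess, control spots having weight 0; 14 lines of statistics per file were left out. Ratios were turned to AAPH over control. Log2 signal per pool followed Aquantile scaling and is comparable between pools for 1 probe. A probe was above background where its signal was over the median of 153 negative control spots by 3 median absolute deviations. It was kept where this held on at least 4 of 8 arrays in AAPH or in control RNA, which left 32931 of 43794.

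Arrays of opposite orientation were paired by how their ratios deviated together from the mean of each orientation: the best of 24 pairings had correlations of 0.139 to 0.555, and the 12 other pairs -0.343 to 0.0498. Pairs 1 to 4 were arrays 1 and 3, 2 and 4, 7 and 5, and 8 and 6. Pair means were tested against 0 with lmFit and eBayes (3 residual degrees of freedom before moderation) and Benjamini-Hochberg adjustment at 0.05. The number of arrays limits the precision.

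The authors' deposited log2 table served as an alternative; per the submitters' processing notes limma was used, with no version given. Its columns correlated with the scanner ratios at 0.967 to 0.994 with slopes of 0.94 to 1.01, so it was log2 and AAPH over control. Its column medians for arrays 1 to 8 were -0.0135, -0.00863, 0.0117, 0.00944, -0.0152, 0.00799, -0.0188 and -0.0197, and its normalization and centring are unknown. Symbols came from the platform annotation: 21790 probes had 1, 0 had several and 22004 had none. Of 15227 symbols 14139 matched a RefSeq symbol (ARS-UCD2.0) and 1088 a synonym.

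The cathepsins and gene lists were chosen with earlier results of these data known. The genes named were every cathepsin, the 3 of smallest p in each related list, the 3 of highest signal in each marker list, and the 4 most like the cathepsin of smallest p, by correlation among genes above background on at least 6 arrays. Also named were the cumulus and granulosa genes with an unadjusted p under 0.05, and the fibroblast markers by their sign in swap pair 4.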

Additional observations from a re-analysis of the deposited data

Results flagged for a closer look

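Of 66 results tested for a swap pair far from the others 2 were marked, where chance alone marks about 1 in 20, or 3.3. CTSZ had a ratio of -0.325 in swap pair 4, while the other 3 pairs lay between 0.603 and 0.677, so that the gap to the nearest pair was 0.927 of the whole range. The median of the lysosomal hydrolases and accessory proteins was 0.050 in swap pair 2 and between 0.0102 and 0.016 in the other 3, a gap of 0.853 of the range.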

How the results depend on the processing

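The pairing of the arrays moved the calls most. With 8 single arrays, a dye term and no replicate block, 930 probes passed after adjustment, and with the pairing crossed within slide sets 1084 did, where the swap pairs and every other alternative gave 0; neither held a cathepsin. Probes at an unadjusted p under 0.05 were 4423 in the main setting, 7084 with the crossed pairing and 2495 with the stricter filter (all 8 arrays of AAPH or of control RNA above background). Cathepsin probes at that level were 1 in the main setting and 0 with the authors' deposited ratios. They were 2 with an offset of 16, with median centring, with scaling between arrays, with the stricter filter, with a variance trend and robust fit and within slide 26. They were 3 with single arrays, 4 with the crossed pairing and within slides 78 and 79, and 1 to 2 without 1 replicate (swap pair) at a time.

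Signs turned for CTSC with median centring (-0.070), scaling (-0.0034), within slide 26 (-0.056) and without replicate 3 (-0.043). They turned for CTSD within slide 26 (0.19) and without replicate 4 (0.041), for CTSA within slide 26 (0.090), and for CTSH within slides 78 and 79 (-0.033) and without replicate 1 (-0.042). Without 1 replicate at a time CTSC ranged from -0.043 to 0.081, CTSD from -0.35 to 0.041, CTSH from -0.042 to 0.11 and CTSA from -0.20 to -0.0018. CTSZ had its smallest adjusted p, 0.0751, with the crossed pairing. The causes were not tested. The median of the 8 cathepsins was 0.020 to 0.072 without 1 replicate and -0.025 with median centring. The dimmer CTSS probe gave no value under the stricter filter. Arrays of CTSA, CTSK and CTSS near background limit those ratios.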
